A study of Mus musculus with 14 samples.

Results

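The snoRNA and scaRNA genes and their host genes were taken as every gene whose symbol starts with Snord, Snora, Scarna or Snhg, together with Gas5. In the Degradome-seq tables a member is a read start site that names such a gene. There were 86 member sites among the 3919 sites of the Drosha table and 84 among the 4666 sites of the Dicer table. The tables share 74 of these sites, and either table holds 96. The sites were split by name into 41 C/D box sites (Snord), 12 H/ACA box sites (Snora), 2 scaRNA sites (Scarna) and 41 host sites. Host sites name a host gene (Snhg or Gas5) and no Snord, Snora or Scarna gene, though some also name another gene. In the RNA-seq table, 72 of 22376 genes are members.

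Small nucleolar RNAs guide the chemical modification of ribosomal RNA. C/D box snoRNAs carry a C box near their 5′ end and a D box near their 3′ end, and direct 2′-O-methylation by fibrillarin. H/ACA box snoRNAs end shortly after an ACA triplet and direct pseudouridylation by dyskerin. scaRNAs do the same for spliceosomal RNAs in Cajal bodies. In mammals most of these RNAs lie in introns of a host gene, and exonucleases trim the debranched intron back to the snoRNP. Many hosts encode ribosomal proteins. Others, such as Gas5 and the Snhg genes, are named for the snoRNAs they carry, and their spliced RNA is largely noncoding.

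The series asks which RNAs Drosha, the nuclear RNase III of miRNA biogenesis, cleaves in mouse embryonic stem cells (ESCs). Degradome-seq ligates an RNA linker to polyA-selected RNA that carries a 5′ monophosphate (5′P), so that the first base of a read marks a 5′P end. The Drosha line was Drosha fl/fl Gt(ROSA)26SorCreERT2, a floxed line with tamoxifen-inducible Cre expressed from Rosa26. Its 2 control libraries came from untreated cells, and its 2 Drosha-deficient libraries from cells given 100 nM 4-hydroxytamoxifen for 72 h and then kept without it for 48 h. The Dicer line was Dicer fl/fl. Its 2 control libraries came from cells transduced with a GFP retrovirus, and its 2 Dicer-deficient libraries from cells transduced with a GFP and Cre retrovirus, sorted for GFP on day 3 and cultured for 2 further days. RNA-seq compared 3 control with 3 Drosha-deficient samples of the Drosha line. Cells of both lines grew with LIF on mitotically inactive fibroblast feeders. Nothing in the labels says that replicates came from separate cultures, so the p-values measure the spread between these samples, which may be technical. In such bulk samples, fewer cells of a type and less RNA per cell cannot be told apart.

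Values are RPM, the number of reads that start at 1 position of 1 strand per M mapped reads of the library, with M the mega prefix. The smallest step between values corresponded to between 28.7 and 34.5 M reads per library, and 3 reads to between 0.0868 and 0.105 RPM, which covers counting error only. The member sites held between 4.08% and 6.55% of the RPM of all sites in the Drosha libraries and between 2.87% and 5.13% in the Dicer libraries. As a check of the labels, the highest site in the Mir290 to Mir295 cluster, in Mir295, had 660 and 704 RPM in the Drosha controls and 131 and 154 RPM without Drosha. It had 1009 and 575 RPM in the Dicer controls, and without Dicer 819 and 665 RPM.

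Most member sites sat at the 5′ end of a snoRNA. In GENCODE vM21, 77 of the 96 sites (80.2%) were within 10 nt of the first base of an annotated snoRNA or scaRNA. For these, the read start was a median of 1 nt inside the annotated gene (range −2 to 7), 24 started exactly at the first base, and 61 started within 2 nt of it. This held for 40 of 41 C/D box sites, 10 of 12 H/ACA box sites and both scaRNA sites. It also held for 25 of the 41 host sites, at which the deposited table names the host and no Snord, Snora or Scarna gene. Some of these sites also name another gene, such as Gm26224 at the SNORD74 site of Gas5. Among the snoRNAs that RefSeq places at these host-named sites are SNORD25 to SNORD31 and Snord22 in Snhg1, and SNORD74, SNORD75, SNORD24 and SNORD44 in Gas5. Many RefSeq models start further downstream than those of GENCODE: the read start was between −34 and 7 nt from the RefSeq first base where a model lay nearby (70 sites).

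The sequences below show what the captured ends look like at sites the results turn on. Each runs 5′ to 3′ on the strand of the site in the GRCm38 reference (RefSeq assembly), with 10 bases before the read start and 20 from it, so that the read starts at base 11. Capitals mark TGATGA, the core of the C box, in the C/D box sites.
Snord82, chr1:86356309-86356338, minus strand: gtagcactagcacaagTGATGAgtgacaaa
Snord107, chr7:59980926-59980955, minus strand: accttgactggatttaTGATGAtataggac
Snord64, chr7:59978854-59978883, minus strand: actttggctggacttaTGATGAgctatgtt
Snord4a, chr11:78181735-78181764, minus strand: gtggtttgggtgcatgTGATGAcattattt
Snord33, chr7:45126926-45126955, minus strand: aggctctggcagcttgTGATGAgacatctc
Snord14a, chr7:116333238-116333267, minus strand: tctggcaagctcacagTGATGAtggtgttc
Gas5, at SNORD74, chr1:161035390-161035419, plus strand: atgcgtgttcatgctaTGATGAaggctatg
Snhg1, at SNORD27, chr19:8724522-8724551, plus strand: ttagatggccacttaaTGATGAacaatgta
In all of these, the TGATGA begins 6 nt after the read start.

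The sites below have no C box there, and capitals mark the first 6 bases of the captured fragment. The first 3 start within 2 nt of an annotated snoRNA's first base. The others start at landmarks of the host transcripts, except Snhg15, which lies elsewhere in an exon.
Snora62, chr9:120130406-120130435, plus strand: tcaccgtcccCTGCACattgttagagcttg
Snhg17, at SNORA71, chr2:158359912-158359941, minus strand: cttgccctctGCCCCTgtattcgaaagtga
Snhg20, at a snoRNA with a provisional symbol, chr11:117077233-117077262, plus strand: cctgaggccgACGGTCtgggaaaaggctcc
Gas5, transcript start, chr1:161035156-161035185, plus strand: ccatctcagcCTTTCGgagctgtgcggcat
Snhg1, first base of an intron, chr19:8724180-8724209, plus strand: tcttttcagaGTAAGTagtgttaatggttt
Snhg6, first base of an exon, chr1:9942372-9942401, minus strand: ttctccccagCATGTAggtggctgtagtgg
Snhg15, within an exon, chr11:6528552-6528581, minus strand: gggacgtttgCCCTGGggagacacgtgcca
The Snhg1 fragment opens with the GTAAGT of the 5′ splice site, and the Snhg6 fragment follows directly on the CAG of a 3′ splice site.

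**Figure D1:**
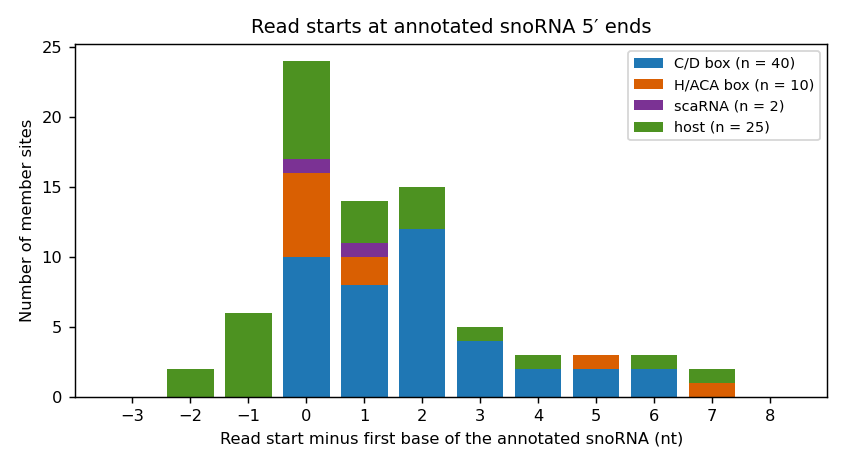
Number of member sites (vertical axis) by the distance of the read start from the first base of the annotated snoRNA or scaRNA in GENCODE vM21 (horizontal axis, nt, positive inside the gene), stacked by class, for the 77 sites within 10 nt of such a base. The starts ran from −2 to 7 nt, with 24 sites at 0.

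The C box recurred at a similar distance from the read start at most C/D box sites. The letters TGATGA lay in the first 20 bases at 33 of the 41 C/D box sites (80.5%), at none of the 12 H/ACA box sites and at 13 of the 25 host sites that sit at a snoRNA 5′ end (52%), against 2.42% of all 5990 sites. They began between 5 and 7 nt after the read start at 31 of the C/D box sites, on the plus strand (9 of 14) as on the minus strand (22 of 27). The shorter TGATG was found in the first 20 bases at all 41 C/D box sites, at 38 of them between 5 and 7 nt after the start, and at 4.21% of all sites. Its complement CATCA was found at none of the 41 and at 1.37% of all sites. At the other end of the annotated genes, the D box letters CTGA lay in the last 15 bases of 35 of the 36 C/D box genes with such a site, against 30.9% of all 1559 annotated snoRNA and scaRNA transcripts. The letters ACA lay in the last 8 bases of all 8 H/ACA box genes, against 47.5%. These matches describe the letters of the reference and are no measurement of binding or cleavage.

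The 19 sites away from snoRNA 5′ ends were fewer and more varied. Inside annotated snoRNAs lay 2 starts in Snora7a, 54 and 70 nt from its first base, and 1 in Snord43, 34 nt from it. The Snord43 start lies 14 nt before the RefSeq first base and has TGATGA 6 nt after it, so that its place depends on the gene model. In the hosts, 3 sites lay at an annotated transcript start (Gas5, Snhg3 and Snhg5), 3 at the first base of an intron or 2 nt after it (all in Snhg1), 1 at the first base of an exon (Snhg6) and 9 elsewhere in exons. The first 30 bases occurred once in the reference genome at 88 of the 96 sites. The others had up to 4 copies and include Snora65, Snord96a, the SNORA71 site of Snhg17 and the Snhg4 site, where these bases do not tell the copies apart. Whether longer reads do was not tested. Reads at a site inside a snoRNA can come from the snoRNA or from the host RNA that contains it.

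The 96 sites fell at 83 places, and at 13 places there were 2 starts within 5 nt of each other. At Snora68, neighbouring starts 1 nt apart divided the reads in nearly the same way in all 8 libraries: the downstream start took 55.9% and 53.3% in the Drosha controls, 55% and 51.5% in the Drosha-deficient libraries, 56% and 56.9% in the Dicer controls and 57.8% and 58.2% in the Dicer-deficient libraries. At the SNORD27 pair of Snhg1, the upstream start took between 50.5% and 56% in the 8 libraries. Some other pairs varied more. The downstream start took between 45.4% and 83.7% at the SNORA71 pair of Snhg17 in the Drosha line. At Snord107 it took between 46.4% and 75.4% over both lines.

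Read starts were distributed very unevenly. Snord82, a C/D box snoRNA in an intron of Ncl (the gene of nucleolin), had 4689 and 5978 RPM in the Drosha controls and 11962 and 7536 RPM in the Dicer controls. Alone it held between 62.4% and 77.4% of the RPM of all member sites in each of the 8 libraries, and it ranked between 4 and 6 among all sites of its table. The next site of the Drosha controls was Snhg15, with 247 and 254 RPM, and the control libraries of these highest sites did not overlap. Below Snhg15, the neighbours in the order overlapped: Snord73a (115 and 185 RPM), the SNORD24 site of Gas5 (186 and 108 RPM), Snord55 (148 and 106 RPM), Snord69 (132 and 105 RPM) and Snord42a (116 and 107 RPM). In the Dicer controls the SNORD24 site of Gas5 (480 and 262 RPM) and Snord55 (473 and 198 RPM) followed Snord82. The median member site had a mean control level of 9.61 RPM in the Drosha line and 10.1 RPM in the Dicer line, against 2.89 and 3.32 RPM over all sites.

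By class, the control means in the Drosha line ran from 0.345 to 5333 RPM in C/D box sites, from 1.49 to 43.7 RPM in H/ACA box sites, from 2.12 to 3.15 RPM in scaRNA sites and from 0.434 to 251 RPM in host sites. The highest H/ACA box sites were those of Snora68, at 48.2 and 39.2 RPM for the downstream start. Snora9 in Snhg15 followed with 23.1 and 18 RPM, and Snora65 with 14.6 and 15.6 RPM. Of the scaRNAs, Scarna10 had 4.01 and 2.29 RPM and Scarna3a 2.2 and 2.05 RPM. Over the 74 shared sites, log2 control levels of the 2 lines correlated (Pearson's r = 0.93, across sites, which share libraries and sequence and are no replicates), and 34 were higher in the Drosha line.

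The first comparison asks which of these ends depend on Drosha. In Drosha-deficient ESCs, 10 of the 86 member sites were decreased (FDR under 0.05 and a log2 fold change under −1.5) and none was increased. For comparison, 37.6% of all sites were decreased and 9.57% were increased. Per the study's methods, sites entered the tables by their pile-up in the control libraries, and the part of this choice in the balance of decreases and increases was not tested. Without control replicate 1, 5 members were decreased, while the count over all sites went from 1473 to 907. The decreased sites lay at 8 places: the C/D box snoRNAs Snord107 (2 starts), Snord64 and Snord4a, the H/ACA box snoRNA Snora68, and the host genes Snhg17 (2 starts), Snhg20, Snhg3 and Snhg4. The median log2 fold change was −0.63 over the members and −0.93 over all sites, and 73 of the 86 members were below 0, against 70.8% of all sites. The members' median was −0.40 without control replicate 1. At an unadjusted p under 0.05, 38 members were lower and 1 was higher, against 49.6% and 16.2% of all sites. Both Drosha-deficient libraries were below both controls at 51 of the 86 members, against 59.9% of all sites, and above both at 3, against 21.2%.

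These directions depended on the scaling. When each library was centred on the median log2 RPM of all its sites, every log2 fold change moved up by 0.59. The split over all sites then went from 1473 decreased and 375 increased to 871 and 602. The median of the members came to −0.04, with 45 of 86 below 0, and that of all sites to −0.34, with 2248 of 3919 below 0. Among the members, 5 sites stayed decreased: both Snord107 starts, the upstream start of Snhg17, Snhg3 and Snhg20. One, Snord14a, was increased.

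All sites are a mixed background. TCT, which equals the last 3 bases of the RNA linker, stood directly before the read start at 30.8% of all sites of the Drosha table and at 2 of the 86 members (2.33%). The median log2 fold change was −2.12 over the sites with TCT there and −0.31 over those without it. Of the 1208 sites with TCT there, 981 were decreased and 13 increased. Of the 2711 without it, 492 were decreased and 362 increased. In the Dicer table TCT stood there at 17.4% of all sites. The median log2 fold change in Dicer-deficient ESCs was 0.06 over these and −0.15 over the sites without TCT. The part of these letters in the difference between members and all sites was not tested.

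Snord107 had the strongest evidence of any member. It is a C/D box snoRNA of the imprinted Snrpn to Ube3a region on chromosome 7, which in humans is lost in Prader-Willi syndrome. At its downstream start it had 6.66 and 9.48 RPM in the controls and 1.29 and 1.6 RPM without Drosha. At its upstream start it had 5.13 and 6.64 RPM against 1.23 and 0.834 RPM. The groups did not overlap at either start. The log2 fold changes were −2.39 (SE 0.39, FDR = 0.000106) and −2.41 (SE 0.41, FDR = 0.000141). Both starts stayed decreased under all 9 alternatives.

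Snord64 lies in the same host transcript, downstream of Snord107. Its site had 33.2 and 56.6 RPM in the controls and 9.32 and 13 RPM in the Drosha-deficient libraries, without overlap. The log2 fold change was −1.97 (SE 0.36, FDR = 0.00023). Centring took it to −1.37, which does not pass the threshold.

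Snord4a, in an intron of the ribosomal protein gene Rpl23a, had 3.45 and 2.29 RPM in the controls and 0.839 and 0.973 RPM in Drosha-deficient ESCs. The log2 fold change was −1.54 (SE 0.44, FDR = 0.00622), close to the threshold, and 4 of 9 alternatives lost the call. Other snoRNAs of Rpl23a were measured beside it. Snord42a had 116 and 107 RPM against 39.5 and 59.1 RPM, a log2 fold change of −1.20 (FDR = 0.00449). Snord42b had 28.7 and 14.7 RPM against 20.9 and 13.7 RPM, and its groups overlapped.

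Snora68 was the only gene with a Snora symbol that had a decreased site. Its downstream start had 48.2 and 39.2 RPM in the controls and 17.5 and 12.8 RPM in Drosha-deficient ESCs. The log2 fold change was −1.53 (SE 0.33, FDR = 0.000926), and −1.46 at the start next to it, which had 38 and 34.3 RPM against 14.3 and 12 RPM. At both starts the Drosha-deficient libraries lay below the controls. The call at the downstream start was lost under 4 of 9 alternatives.

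Snhg17 was decreased at both starts of its SNORA71 site, where the first 30 bases have 2 copies in the genome. The downstream start had 8.37 and 9.44 RPM in the controls and 2.81 and 1.53 RPM in the Drosha-deficient libraries, and the upstream start 5.47 and 5.41 RPM against 0.548 and 1.84 RPM. The log2 fold changes were −2.05 (SE 0.40, FDR = 0.000391) and −2.30 (SE 0.48, FDR = 0.000703). Without control replicate 1 or control replicate 2 the upstream call was lost (FDR = 0.0677 and 0.0627), and its log2 fold change ran from −3.09 to −1.51 when 1 library was left out. The downstream call was lost with centring (log2 fold change −1.45). TCT stands before the upstream start. Another snoRNA of Snhg17, at 158358474, had 35.6 and 23.2 RPM against 17.3 and 13.4 RPM, a log2 fold change of −0.91 (FDR = 0.0298). The SNORA71 copy in the nearby Snhg11 had 9.41 and 3.39 RPM against 3.52 and 1.95 RPM, with overlapping groups.

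The other decreased host sites had few reads. Snhg20 had 2.13 and 1.23 RPM in the controls and 0 and 0.382 RPM in the Drosha-deficient libraries, where 3 reads are 0.0968 and 0.104 RPM. Its log2 fold change was −2.97 (SE 0.69, FDR = 0.00144) and ranged from −4.11 to −1.17 over the alternatives. Snhg3, at its transcript start, had 1.5 and 2.22 RPM against 0.194 and 0.521 RPM, a log2 fold change of −2.17 (SE 0.54, FDR = 0.00231). Snhg20 and Snhg3 each lost the call under 2 of 9 alternatives. Snhg4 had 2.96 and 2.02 RPM against 0.484 and 1.01 RPM, a log2 fold change of −1.66 (SE 0.48, FDR = 0.00648), and lost the call under 5 of 9 alternatives. The snoRNA at this Snhg4 site has the symbol Mir1949 in GENCODE, where its gene type is snoRNA and a miRNA gene of the same symbol overlaps it, and RefSeq has no snoRNA model there. In each of these genes the groups did not overlap.

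**Figure D2:**
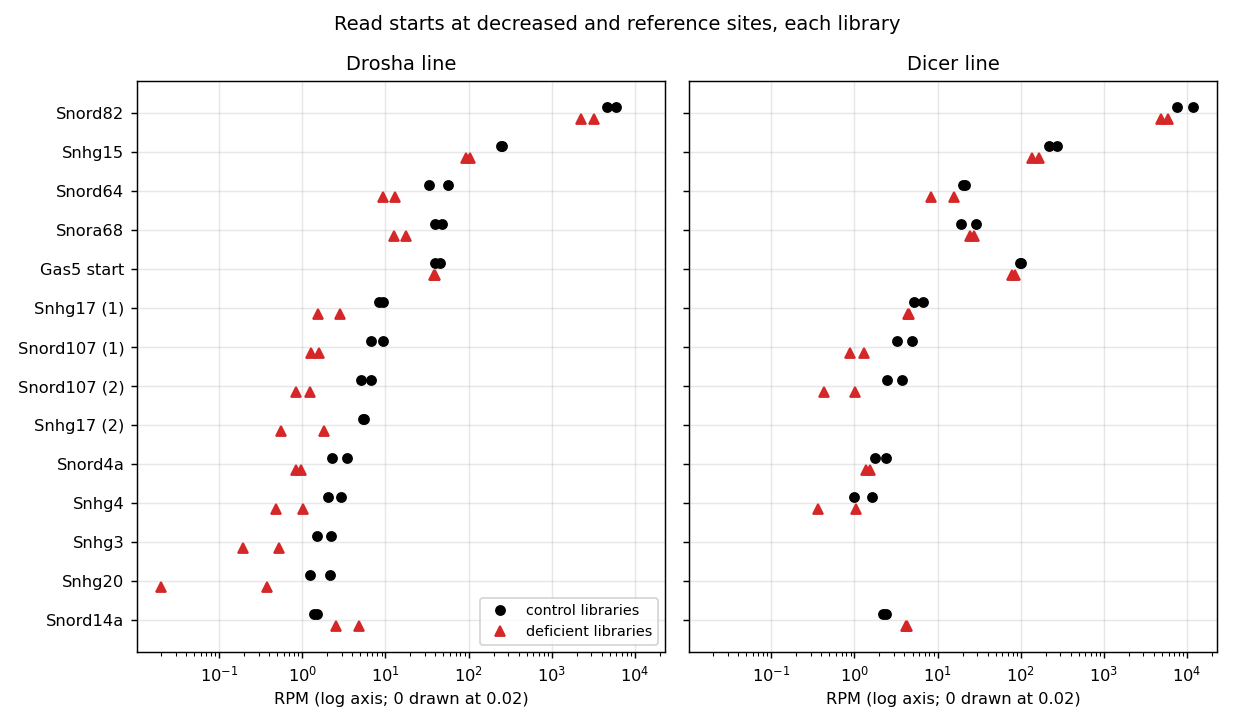
RPM (horizontal axis, logarithmic, with 0 drawn at 0.02) of each library at the 10 sites decreased in Drosha-deficient ESCs and at the highest site (Snord82), Snhg15, the Gas5 transcript start and Snord14a, in the Drosha line (left) and the Dicer line (right). Black circles are the 2 control libraries and red triangles the 2 deficient libraries. The groups are apart on the left at all 10 decreased sites. On the right they are apart at both Snord107 starts, Snord64, Snord4a, the downstream Snhg17 start, Snord82, Snhg15, the Gas5 transcript start and Snord14a. Snhg17 (2), Snhg3 and Snhg20 have no site in the Dicer table.

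Just outside the fold threshold lay the second Snora68 start (−1.46), Snord89 (26 and 24.5 RPM against 8.81 and 9.63 RPM, log2 fold change −1.44) and Snhg15 (247 and 254 RPM against 94.2 and 103 RPM, log2 fold change −1.35, FDR = 0.00157). With a threshold of 1 instead of 1.5, 23 members were decreased and 1 was increased, against 46.2% and 14.2% of all sites. Both scaRNA sites then passed: Scarna3a (2.2 and 2.05 RPM against 0.677 and 0.973 RPM, log2 fold change −1.28) and Scarna10 (4.01 and 2.29 RPM against 1.71 and 1.15 RPM, log2 fold change −1.06). The increased one was Snord14a, a C/D box snoRNA in an intron of Rps13. It had 1.5 and 1.4 RPM in the controls and 4.87 and 2.57 RPM in Drosha-deficient ESCs, with a log2 fold change of 1.23 (SE 0.43, FDR = 0.0199). When 1 library was left out this ran from 0.79 to 1.68, and the FDR was 0.132, 0.148 and 0.219 in 3 of the 4 fits. In the Dicer line it had 4.26 and 4.18 RPM in the deficient libraries and 2.2 and 2.39 RPM in the controls, without overlap and without passing the test (log2 fold change 0.85, FDR = 0.507).

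Snord82 had 4689 and 5978 RPM in the controls and 2270 and 3193 RPM in the Drosha-deficient libraries. The groups did not overlap, and the log2 fold change was −0.98 (SE 0.39, FDR = 0.038), which is about the median of all sites. The FDR was between 0.0941 and 0.365 when any 1 library was left out, 0.058 without the trend, and 0.472 with centring (log2 fold change −0.38). The genes of stem-loops that the study proposed include Snord107, Snord64 and Snord4a, with decreased sites, and Snhg1 and Snord33, without one. Per its methods, the study sought stem-loops only at sites it had itself found decreased in these same libraries. The decreases at the first of these genes are therefore no separate evidence, and for Snhg1 and Snord33 the 2 models differ. Snord33 had 16.1 and 5.61 RPM against 11.5 and 4.27 RPM at its main start, and the groups overlapped. Its log2 fold change was −0.44 (SE 0.49, FDR = 0.455). Its other start, next to it, had 5.37 and 5.41 RPM against 4.29 and 1.74 RPM, with the groups apart and a log2 fold change of −0.95 (SE 0.43, FDR = 0.0645), and was called only without Drosha-deficient replicate 1 (−1.58).

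The classes overlapped widely. The median log2 fold change was −0.63 over 39 C/D box sites (4 decreased), −0.47 over 12 H/ACA box sites (1 decreased), −1.17 over 2 scaRNA sites (none decreased) and −0.76 over 33 host sites (5 decreased), where 37.6% of all sites were decreased. The H/ACA box median was −0.88 without Drosha-deficient replicate 1 and −0.12 without Drosha-deficient replicate 2, and the host median −0.44 over sites with a single genome copy. With centring, the median was −0.03, 0.12, −0.58 and −0.16, so that the sign turned for H/ACA box sites. Host-named sites at a snoRNA 5′ end had a median of −0.64 (25 sites) and host sites elsewhere one of −0.90 (8 sites). The former mix both boxes. Those that the annotations give as H/ACA box snoRNAs were the 2 starts at SNORA71 in Snhg17 (−2.05 and −2.30), Snora61 in Snhg12 (−1.26) and SNORA71 in Snhg11 (−1.08), which the H/ACA box class does not hold, and none of those given as C/D box snoRNAs was decreased. Over the 25 sites in introns of Rpl and Rps genes the median was −0.51. No test was made between classes, because sites of a class share libraries and often a transcript.

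**Figure D3:**
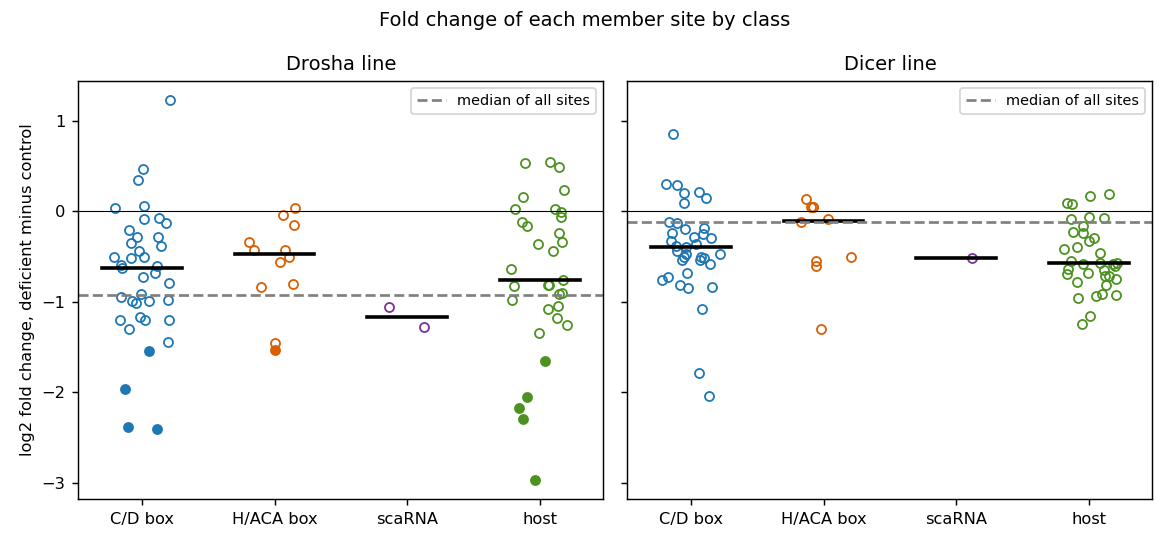
log2 fold change of deficient against control (vertical axis) of each member site by class, in the Drosha line (left, 86 sites) and the Dicer line (right, 84 sites). Filled points are decreased, black bars are class medians and the dashed line is the median of all sites. The class medians lie between −1.17 and −0.47 on the left, where the median of all sites is −0.93, and between −0.58 and −0.10 on the right, where it is −0.12.

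Within single host transcripts the levels were uneven. Gas5, a noncoding host of several C/D box snoRNAs, had 12 sites in the Drosha table, 11 of them at snoRNA 5′ ends. Mean control levels of those 11 ran from 2.82 RPM (Snord80) to 147 RPM (the SNORD24 site), a 52.3-fold range in 1 transcript. None was decreased, against 37.6% of all sites. Their median log2 fold change was −0.34 (range −0.81 to 0.35), against −0.93 over all sites. The SNORD74 pair had 40.5 and 38.3 RPM in the controls and 41.8 and 38.5 RPM without Drosha at its upstream start. The transcript start of Gas5 had 39.9 and 45.5 RPM against 38.4 and 40 RPM, a log2 fold change of −0.12 (SE 0.32, FDR = 0.759). The lowest value in Gas5 was −0.81 (FDR = 0.052), at a start with 38.1 and 53.1 RPM against 20.1 and 32.7 RPM. This start and its neighbour (−0.64) lie at a gene that GENCODE types as snoRNA under the symbol Mir5117, without a RefSeq snoRNA model.

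Snhg1 had 11 sites in the Drosha table, 9 of them at snoRNA 5′ ends, whose log2 fold changes ran from −0.98 to 0.53. The SNORD25 site had 40.3 and 29.5 RPM in the controls and 20 and 15.2 RPM in Drosha-deficient ESCs, with a log2 fold change of −0.98 (FDR = 0.0182). The upstream start of SNORD27 had 44 and 37.5 RPM against 23.9 and 19.7 RPM (log2 fold change −0.90, FDR = 0.023), and Snord22 had 52.3 and 37.9 RPM against 23.2 and 26.9 RPM (−0.83, FDR = 0.0361). The groups were apart at each of these. At SNORD28 the controls of 11.5 and 2.67 RPM and the Drosha-deficient libraries of 13.7 and 4.73 RPM overlapped. The highest Snhg1 site was the first base of an intron, with 70.3 and 54.4 RPM in the controls and 101 and 81.5 RPM in the Drosha-deficient libraries. There the Drosha-deficient libraries were higher without overlap, but the log2 fold change of 0.55 (SE 0.32, FDR = 0.147) did not pass the test. The FDR was 0.0317 with the replicate block, and with centring the log2 fold change was 1.15 (FDR = 0.00227), both short of the fold threshold.

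**Figure D4:**
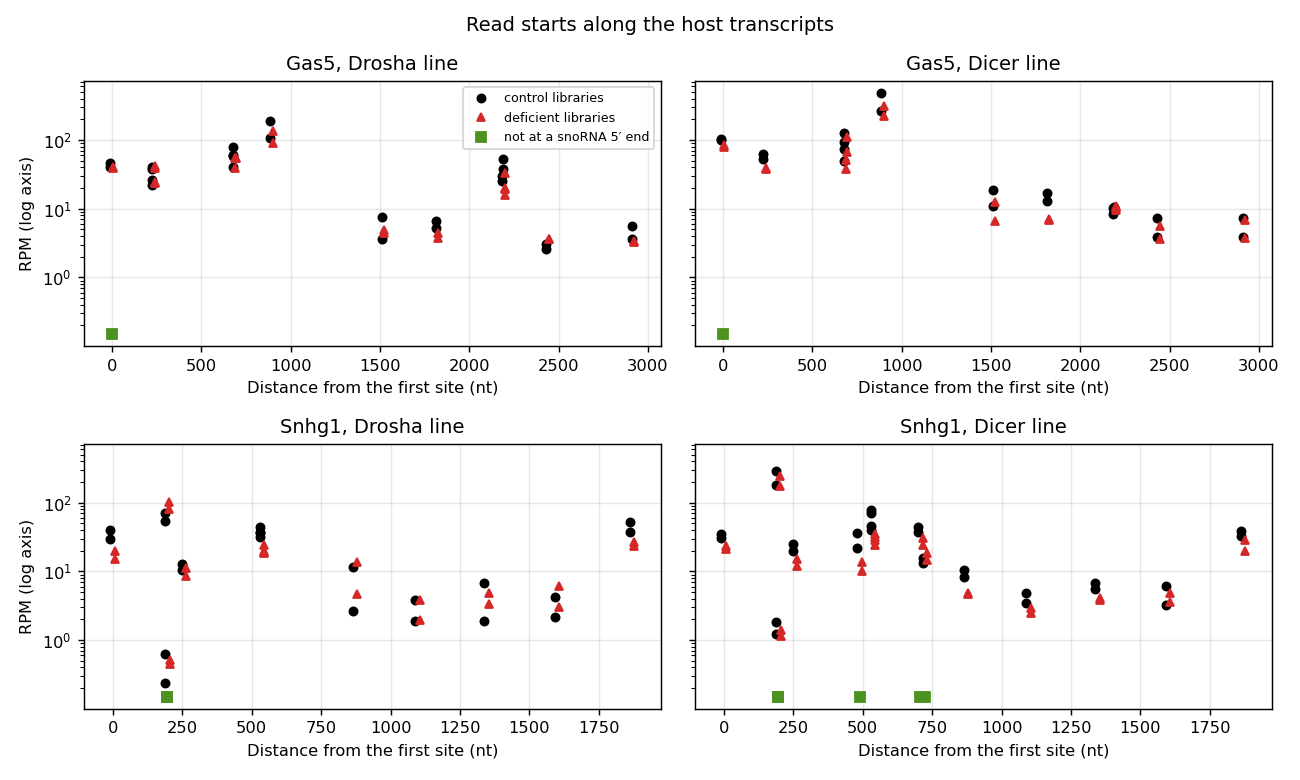
RPM (vertical axis, logarithmic) of each library at the member sites of Gas5 (top) and Snhg1 (bottom) by distance from the first member site of the gene (horizontal axis, nt), in the Drosha line (left) and the Dicer line (right). Black circles are control and red triangles deficient libraries, shifted sideways for clarity, and green squares at the bottom mark sites that are not at a snoRNA 5′ end. In Gas5 the control means at snoRNA 5′ ends span 52.3-fold in the Drosha line and 66.6-fold in the Dicer line.

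The second comparison asks which ends change when miRNAs are lost without loss of Drosha. The Dicer-deficient cells also had Cre, which the GFP controls lacked, so its effects and loss of Dicer cannot be told apart. In Dicer-deficient ESCs, limma called none of the 84 member sites, and 0% of all 4666 sites in either direction. The study, with edgeR on read counts, did report sites decreased without Dicer. With the replicate number as a block, limma called 67 of all sites decreased and 119 increased. The absence of calls therefore depends on the model and is no evidence that these ends are unchanged. At an unadjusted p under 0.05, 12 members were lower and none was higher, against 5.19% and 4.65% of all sites, and the smallest FDR of a member was 0.465. The median log2 fold change was −0.47 over the members and −0.12 over all sites, and 69 of 84 members were below 0, against 56.6% of all sites. Both Dicer-deficient libraries were below both controls at 42 of 84 members, against 27.4% of all sites, and above both at 3, against 16.8%. By class, the median was −0.39 over 37 C/D box sites, −0.10 over 10 H/ACA box sites, −0.52 at the 1 scaRNA site and −0.58 over 36 host sites. Centring added 0.01 to each log2 fold change. Without Dicer-deficient replicate 2 the H/ACA box median was 0.04.

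The lowest values in the Dicer line were those of Snord107. Its downstream start had 4.89 and 3.21 RPM in the controls and 0.878 and 1.31 RPM without Dicer, and its upstream start 3.76 and 2.48 RPM against 1.01 and 0.428 RPM. The groups did not overlap. The log2 fold changes were −1.79 (SE 0.46) and −2.04 (SE 0.56), each with an FDR of 0.465. With the replicate number as a block, both starts passed (FDR = 0.00357 and 0.000938), as 2 of 67 decreased sites. Over all sites 119 were increased under the block, none of them a member. Snord64 in the same transcript had 21.3 and 20.4 RPM against 15.9 and 8.43 RPM, a log2 fold change of −0.84 (SE 0.40), which was −1.30 without Dicer-deficient replicate 1 and −0.39 without Dicer-deficient replicate 2. Snora68 had 18.9 and 29.2 RPM in the Dicer controls and 27.6 and 24.4 RPM without Dicer, with overlapping groups. Snord82 had 11962 and 7536 RPM against 5970 and 4814 RPM. Its log2 fold change was −0.82 (SE 0.38) and ran from −1.16 to −0.49 when 1 library was left out. Snhg15 had 273 and 217 RPM against 164 and 138 RPM. Its log2 fold change was −0.69 (SE 0.30), with a range of −0.86 to −0.53 when 1 library was left out. Both were lower in the deficient libraries without overlap, and neither passed the test. With the replicate number as a block, Snord82 had an FDR of 0.0279 and Snhg15 of 0.246, both short of the fold threshold.

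Host sites that are in the Dicer table only include the following. In Snhg12, which carries Snord99 and Snora61, a start in an exon had 7.06 and 5.39 RPM in the controls and 2.91 and 2.54 RPM without Dicer, a log2 fold change of −1.16 (SE 0.37). In Snhg1, the first base of the intron that holds SNORD27 had 36.4 and 21.6 RPM against 13.5 and 10.2 RPM, a log2 fold change of −1.25 (SE 0.38). The H/ACA box snoRNA Snora24, in Snhg8 and in both tables, had the lowest value of its class, with 6.48 and 5.16 RPM against 2.74 and 1.92 RPM. None of these passed the test.

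The difference between the comparisons was tested as an interaction over the 2595 shared sites. None of the 74 shared members differed at an FDR under 0.05 (4.78% of all shared sites did), and the smallest FDR was 0.0638. At an unadjusted p under 0.05, 5 differed, against 37.6% of all shared sites. These were both starts of Snora68, the downstream start of Snhg17, Snord42a and Snord89, each with the Drosha effect lower. For Snora68 the Drosha effect minus the Dicer effect was −1.68 (SE 0.47) at the downstream start, for Snhg17 −1.65 (SE 0.54) and for Snord42a −1.41 (SE 0.48). For the Snord107 starts it was −0.60 (SE 0.59) and −0.37 (SE 0.71). The median difference was −0.18 over the members and −0.46 over all shared sites. The members' median was −0.47 without Drosha control replicate 2 and 0.03 without Dicer-deficient replicate 1. With centring, the medians over members and over all shared sites turned to 0.34 and 0.05. There, no member and 410 shared sites differed at an FDR under 0.05, and 9 members had an unadjusted p under 0.05 and only 2 of them a lower Drosha effect. With the replicate block 7 members and 1320 of the 2595 shared sites differed at an FDR under 0.05, and without Dicer control replicate 1, 3 members and 969 shared sites did. Without centring, 51 of the 74 shared members were below 0 in both lines, 11 in the Drosha line only, 11 in the Dicer line only and 1 above 0 in both. Over all 2595 shared sites these counts were 1017, 678, 326 and 574. With centring, 45 of the 86 members of the Drosha line were below 0, so counts of shared sign depend on the scaling. Both deficient libraries were below both controls in both lines at 22 of 74 (29.7%), against 13.5% of all shared sites. These 22 include Snord82, Snord107, Snord64, Snord4a, Snord89, Snord69 and Snhg15. The single site higher in both was Snord14a.

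In RNA-seq of polyA-selected RNA from the Drosha line, the median level of hosts was above that of snoRNAs, with overlapping ranges. The values are the authors' mean log2 CPM, for which there is no replicate check here, and whether they changed with Drosha was not analysed. Hosts (17 genes) had a median of 5.49, C/D box genes (34) of −0.59, H/ACA box genes (16) of −0.96 and scaRNA genes (5) of −2.07. Per kilobase of annotated exon these medians were 3.68, 2.87, 1.81 and 1.09, against 1.05 over all genes, so that the gap was smaller per length. The median length was 2402 nt in hosts, 80 nt in C/D box genes and 136 nt in H/ACA box genes. Many of the C/D box genes are shorter than a read of the study, so values per kb may not be comparable between snoRNAs and hosts. Reads of a snoRNA and of the host intron that holds it cannot be told apart in these values.

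Among the hosts, the highest log2 CPM per kb were those of Snhg6 (6.64), Snhg1 (5.96), Snhg5 (5.74), Gas5 (5.52), Snhg15 (5.21), Snhg8 (5.12), Snhg3 (4.88) and Snhg12 (4.73). Snhg20 was at 3.68 and Snhg17 at 3.37. The C/D box genes were led by Snord104 (5.45), Snord32a (5.25), Snord55 (4.80) and Snord49a (4.61), and the H/ACA box genes by Snora57 (5.23), Snora73b (4.46) and Snora17 (3.80). Scarna8 (1.93) led the scaRNAs. Of the 48 snoRNA and scaRNA genes with a read start site, 23 are also in the RNA-seq table, and of the 13 hosts, 12. Snord82, which had the highest read start level in Degradome-seq, had the lowest mean log2 CPM of the 34 C/D box genes (−3.15, and 0.68 per kb). Its −3.15 is close to the lowest value of all genes (−3.25), so its rank rests on a level near the floor. Snord104 had no read start site in either table.

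Transcripts of nearly all listed genes whose proteins act with these RNAs were in the RNA-seq table. The C/D box snoRNP genes Fbl (fibrillarin), Nop56, Nop58 and Snu13 had between 3.77 and 5.57 log2 CPM per kb, and the H/ACA box snoRNP genes Dkc1 (dyskerin), Gar1, Nhp2 and Nop10 between 5.40 and 6.77. Of 10 assembly factors, 9 were in the table, between 1.84 and 7.05, the highest being Ruvbl2. The Cajal body genes Coil and Wrap53 were at 4.83 and 3.71. Of the 8 processing and decay genes, which include the debranching enzyme Dbr1 (3.93) and the exonucleases Xrn2 (5.63) and Xrn1 (2.23), all were in the table. In Degradome-seq these 28 genes had 10 sites in the Drosha table, 1 decreased and none increased (37.6% and 9.57% of all sites), and 11 in the Dicer table, none called. Most were in Nop56 and Nop58, which are snoRNA hosts too. The decreased site, in Nop56, had 4.32 and 4.58 RPM against 1.9 and 0.904 RPM, a log2 fold change of −1.68 (SE 0.43, FDR = 0.00308).

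The 10 markers of ESCs had between 3.97 (Lin28a) and 10.88 (Dppa5a) log2 CPM per kb, with Pou5f1 at 8.61. The 10 markers of feeder fibroblasts had between −3.96 (Twist2) and 3.89 (Col1a1), with a median of 0.93 against 6.21 for the ESC markers. None of the feeder markers had a site in either Degradome-seq table, and the part of feeder RNA in the results was not tested.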

How the data were processed

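Degradome-seq was analysed in 8 libraries and RNA-seq as 1 table. Per the submitters' processing notes and the study's methods, the authors trimmed reads with Trimmomatic 0.38.0, aligned them to GRCm38 (mm10) with STAR, counted read starts per position and strand, kept the positions that a model trained on known miRNA cleavage sites picked out as pile-ups in both control libraries, and deposited RPM of mapped reads for each library without pooling. Sites that the classifier did not choose were not analysed here. The authors also deposited log2 fold changes and p-values (edgeR 3.26.1) and, for RNA-seq, the quasi-likelihood F score. These columns hold the authors' own comparison and were not used. From the RNA-seq table only the authors' mean log2 CPM was taken, and log2 of the exon length in kb (union of GENCODE vM21 exons) was subtracted for levels per kb.

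Sites were fitted with limma 3.58.1 (R 4.3.3) on log2(RPM + 0.1), with a mean-variance trend in the moderated variances and Benjamini-Hochberg adjustment (FDR) over all sites of each table. Fold changes are on this scale, which understates low sites. Sites were called where the log2 fold change lay past −1.5 or 1.5 at an FDR under 0.05. The difference between the lines was a limma interaction over shared sites. With 2 libraries against 2, an exact test of a single value could not go below a p of 0.333, so none was made. The design foresaw a count test if whole reads were recovered. In each library, values under 300 reads lay within 0.1 of whole multiples of 1 step. In some columns the smallest value is already a multiple of that step, and recovered reads were not accepted there, so the count test was left out.

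Positions in the files are 1-based, as the C box distance on both strands showed. Sites were placed with GENCODE vM21, RefSeq features and the GRCm38 RefSeq genome. The tolerance of 10 nt, the classes of place and the TCT letters were chosen after seeing the data. Sites named are those called, the 4 with the highest control mean in each class and table, those in genes of stem-loops the study proposed, and neighbours within 30 nt. In RNA-seq, names were drawn from the 10 highest genes of each class. Other sites and genes named were chosen after their values were seen. The members and all lists were chosen with earlier results of these data known. The fits were tested on simulated data. Python 3.11.15, pandas 2.3.3 and numpy 2.4.6 were used. The host gene and sequence of 1 member are not reported here.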

Additional observations from a re-analysis of the deposited data

How the results depend on the processing

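In Drosha-deficient ESCs, the 10 decreased members (1473 over all sites) became 5 (548) with a pseudocount of 1 RPM, 5 (871, and 1 member increased) with centring on all sites, 23 (and 1 increased) at a threshold of 1, and between 5 and 12 (increased: 0 to 1) without 1 library, with 5 (907) without control replicate 1. All 10 stayed with a filter at a mean of 0.5 RPM, without the trend and with the replicate block. The members' median ranged from −0.93 to −0.40 without 1 library (C/D box −0.96 to −0.39, H/ACA box −0.88 to −0.12, scaRNA −1.39 to −0.95, host −0.75 to −0.49). Centring gave −0.04 (C/D box −0.03, H/ACA box 0.12, scaRNA −0.58, host −0.16), a pseudocount of 1 RPM −0.37 for H/ACA box and −0.77 for scaRNA sites, and sites with a single genome copy −0.44 for hosts. Of 144 checks of single sites, 118 kept their side of the threshold, 21 became weaker, 5 stronger and none reversed. In Dicer-deficient ESCs, a pseudocount of 1 RPM gave a median of −0.34, and leaving out 1 library −0.64 to −0.30 (C/D box −0.67 to −0.15, H/ACA box −0.25 to 0.04, scaRNA −0.92 to −0.11, host −0.70 to −0.39). Calls stayed at 0 to 0 without any 1 library. Libraries with the same replicate number share only that number: over all sites their deviations correlated at 0.13 in the Drosha and 0.53 in the Dicer line. With the replicate block, 2 Dicer members were decreased, both Snord107 starts (67 of all sites), and 7 shared members differed between lines (1320 of 2595 shared sites). Without 1 library, 0 to 3 members differed, with 3 (969 shared sites) without Dicer control replicate 1. The causes were not tested. Keeping 1 start per place (added after seeing the data) gave 8 decreased sites. Keeping only sites on the strand of a transcript the table names and in an exon of any isoform of the named or overlapping host gene removed no member. A named snoRNA counts as an exon of its own, so sites inside one pass this filter by definition and are not tested by it. edgeR on recovered reads was not run. With 2 libraries a group, sites of a few RPM remain the least certain.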
